A study of Mus musculus with 6 samples.

Results

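Forkhead genes encode transcription factors that bind DNA through a winged-helix domain, and the letter after Fox names the subfamily. The forkhead genes are the rows of the deposited gene table whose symbol is Fox, a letter from a to s, and a number. The rule gave 45 of 54433 genes. In the deposited annotation all 45 carry the Pfam Forkhead domain, and no other row of the table carries it.

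RNA was sequenced in 6 libraries from MC3T3-E1 cells, an osteoblast-like line of mouse origin. WT denotes 3 libraries of wild-type cells kept in Dulbecco's modified Eagle medium, and FR denotes 3 libraries of cells resistant to 30 ppm fluoride. Per the labels, FR cells were selected by long exposure to fluoride in a gradient of 10 ppm, and for the FR samples a gradient of 30 ppm is given as their treatment. Adaptation and fluoride present at harvest therefore cannot be told apart, and nothing in the labels tells whether 1 resistant population or several gave the FR libraries. The p-values thus rest on the spread among these libraries, which may be technical. The series title speaks of mice, while the sample labels describe only this cell line.

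Forkhead factors act in development, metabolism and the cell cycle. FoxO proteins are kept out of the nucleus when insulin and growth factors activate the kinases Akt and SGK. When free to enter, they drive genes of cell cycle arrest, oxidant defence and protein breakdown, and in osteoblasts FoxO1 is known for its part in defence against oxidative stress. FoxM1 drives genes of the G2 and M phases, and FoxC, FoxD, FoxF, FoxL and FoxS genes mark mesenchymal cells of various organs.

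The libraries summed to between 19246119 and 27140662 expected counts, the deposited estimates of fragments per gene. Levels are given as CPM (counts scaled to a common library size), with trimmed-mean (TMM) factors. At these depths 3 counts in a library correspond to 0.110 to 0.156 CPM, a limit that covers counting error only. Of 12 osteoblast-defining markers, 8 could be tested and all 8 were lower in FR (median log2 fold change −2.43). Of all tested genes 35.5% were lower at the same threshold, given below. Cdh11, a mesenchymal cadherin, went from 399.9 to 13.5 CPM, Col1a1 from 5055 to 635 CPM and Col1a2, the other chain of type I collagen, from 9282 to 3104 CPM. Sp7, Alpl and Bglap were too low to test and Ibsp had no count in any library. In bulk RNA, fewer cells expressing a gene and less RNA per cell cannot be told apart.

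Of the 45 forkhead genes, 22 passed the filter on low counts and were tested, 13 had a few counts and 10 had none in any library. In edgeR's quasi-likelihood test with Benjamini-Hochberg adjustment over all 14889 tested genes, 9 of the 22 were higher and 12 lower in FR at an adjusted p under 0.05. The background in this comparison is high, with 70.1% of all tested genes called, 34.6% higher and 35.5% lower. Among the 22 tested forkhead genes the deepest falls were in Foxl2, Foxs1 and Foxf1, each 9.58-fold to 10.8-fold, while Foxf2 rose 2.03-fold. A gene passes the filter if it is high in either group, so the 22 are not a neutral sample of the family. Foxj1, called higher, passed through FR alone, and Foxs1, called lower, through WT alone. At a change of at least 2-fold, 3 of the 22 were higher (background 7.4%) and 4 lower (background 11.4%), and 3 of the 4 were at least 8-fold lower (background 3.67%). Over the alternatives these 2-fold counts ranged from 2 to 4 higher and from 4 to 6 lower. The CPM of the groups did not overlap for 20 of the 22, against 72.4% of all tested genes. The median log2 fold change, FR over WT, was −0.15 over the 22 and 0.00 over all tested genes.

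**Figure D1:**
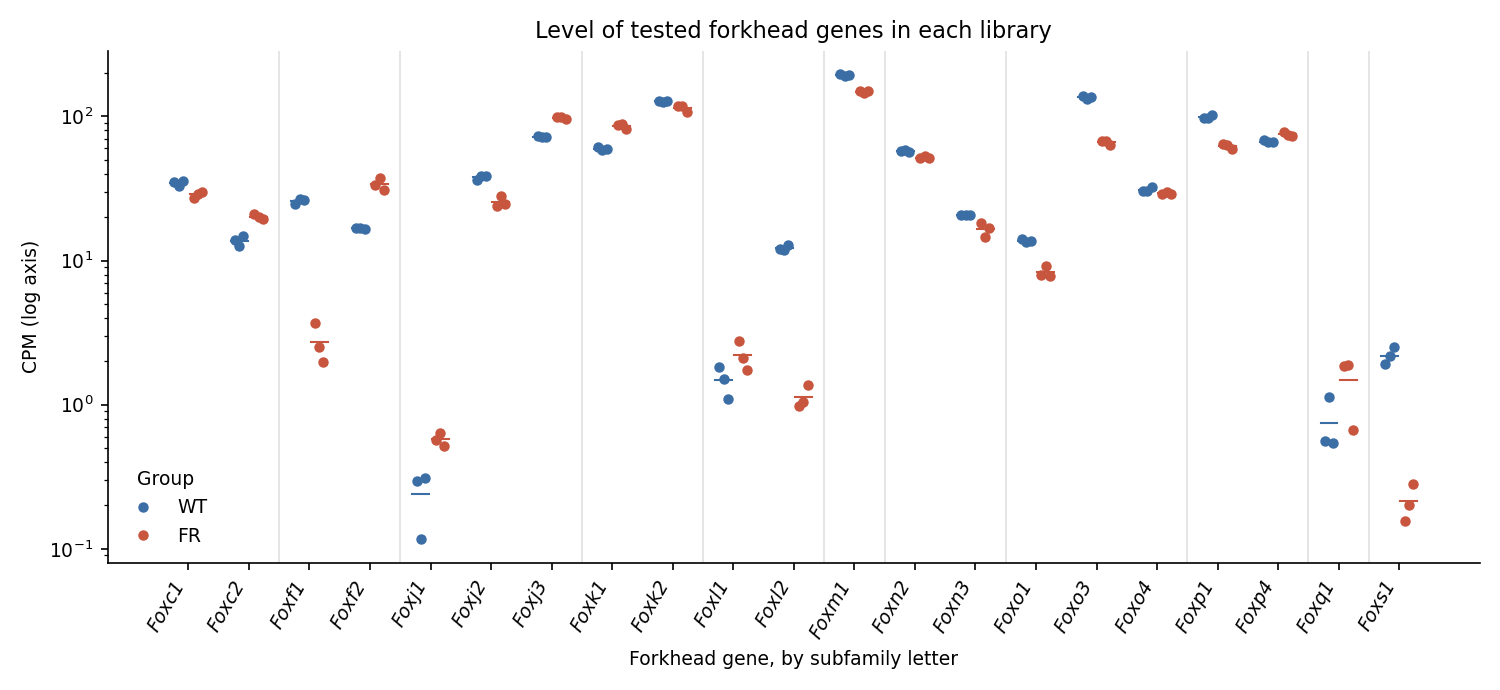
CPM on a log axis of 21 tested forkhead genes, ordered by subfamily letter, with 1 point per library (3 WT, blue; 3 FR, red) and a line at the group mean. Foxf1, Foxl2 and Foxs1 drop by about an order of magnitude in FR, Foxm1 has the highest CPM of the genes shown in both groups, and the points of the groups overlap for Foxl1 and Foxq1.

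**Figure D2:**
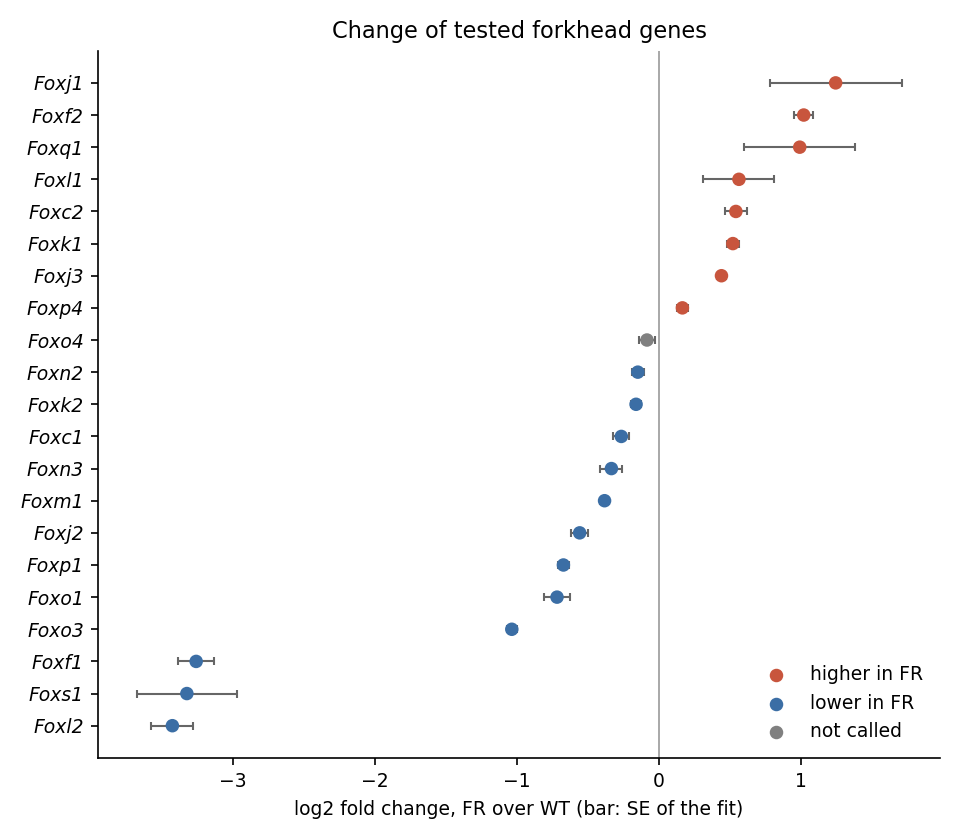
Log2 fold change, FR over WT, of 21 tested forkhead genes in order of size, with the SE of the fit as a bar. Red points are called higher, blue points lower, and the grey point (Foxo4) is not called; the bars of Foxj1, Foxq1, Foxl1 and Foxs1 are the widest, and these 4 genes have the lowest counts of those shown.

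Levels of different genes are set side by side on CPM per kb of the deposited gene length, whose basis is unstated. Among the tested members described here, Foxp1 stood highest in WT with 46.7 ± 1.37 CPM per kb, followed by Foxm1 with 41.7 ± 0.600 and Foxk2 with 25.5 ± 0.209 (SD, n = 3). The libraries of these genes did not overlap in WT. In FR the order of the leading pair was turned, with Foxm1 at 32 ± 0.741 and Foxp1 at 29.3 ± 1.21 CPM per kb. Foxp4 followed at 23.5 ± 0.693 (SD, n = 3 each), and its libraries overlapped those of Foxk2. In CPM not divided by length, Foxm1 stood above Foxp1 in WT too (194 against 99.0 CPM), so this reversal depends on the lengths.

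Summed over the members described here, the level was 251 ± 3.0 CPM per kb in WT and 211 ± 5.72 in FR (SD, n = 3). An item not reported here is left out, so these values do not give the level of the whole family or its direction. FoxP made up 27% of this sum in WT and 25.1% in FR, FoxM 16.6% and 15.2%, FoxO 12.4% and 9.42%, FoxK 13.3% and 16.2%, and FoxJ 9.30% and 12.4%. These shares are a description without a test, and they depend on the deposited gene lengths.

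**Figure D3:**
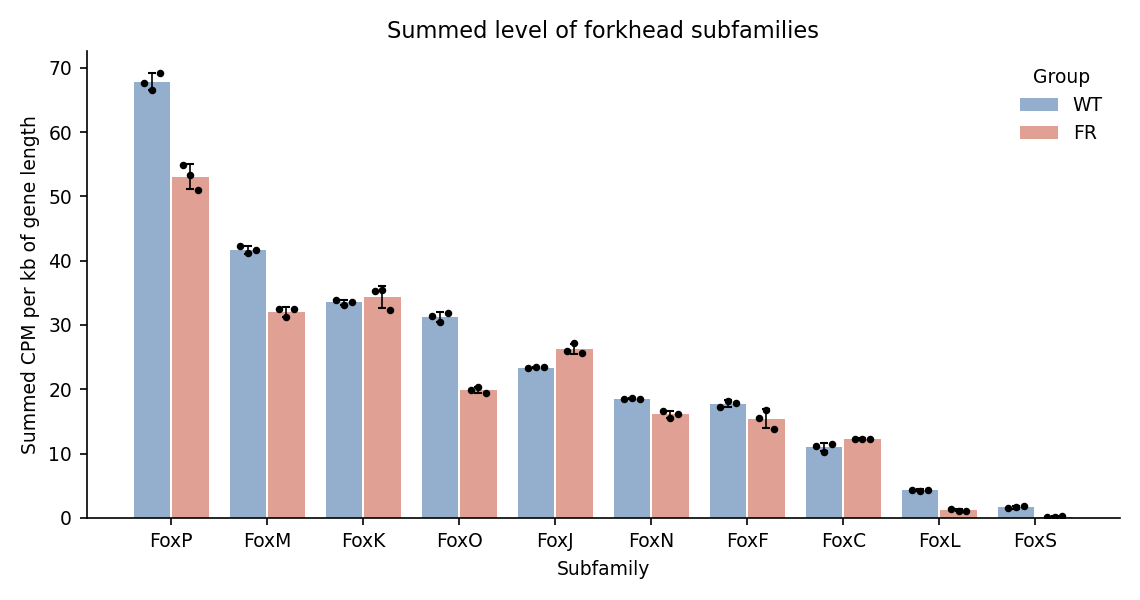
Summed CPM per kb of gene length for 10 subfamilies, each reaching 1 CPM per kb in either group, without the item not reported here. Bars are means of the 3 libraries of a group (WT blue, FR red), black points the libraries and error bars the SD. Of the sums shown, that of FoxP is the tallest in both groups, and those of FoxL and FoxS fall the most in proportion.

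Both FoxO genes that fell, Foxo3 and Foxo1, did so in every FR library, while Foxo4 did not pass the test. The FoxO factors are the targets of insulin and growth factor signalling described above. Foxo3 (ENSMUSG00000048756) had 139, 132 and 137 CPM in WT and 67.8, 67.4 and 63.7 in FR (log2 fold change −1.04 ± 0.04 SE, edgeR adjusted p = 1.82e-20). Foxo1 (ENSMUSG00000044167) had 14, 13.5 and 13.7 CPM in WT and 7.95, 9.23 and 7.79 in FR (log2 fold change −0.72 ± 0.09 SE, edgeR adjusted p = 1.21e-07). For both genes the groups were clearly apart. Foxo4 had 30.3, 30.5 and 32.2 CPM in WT and 28.8, 29.9 and 28.9 in FR (log2 fold change −0.08 ± 0.05 SE, edgeR adjusted p = 0.174), groups that are close but do not overlap. Foxo6 had 2 counts in an FR library and none elsewhere. Per kb, Foxo3 exceeded Foxo4 by a ratio of 2.03 ± 0.0759 in WT and 1.05 ± 0.0362 in FR (SD, n = 3), and in FR the ranges of the 2 genes overlapped.

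The proximal promoters of Foxo1 and Foxo3 are shown because these members moved in the same direction. Each is the 250 bases before the RefSeq start site in build GRCm38.p6, a build other than the GRCm39 named for the counts. Capitals mark AAACA or its complement TGTTT, the core of the forkhead binding motif. Foxo1 lies at chr3:52268087-52268336 on the plus strand and Foxo3 at chr10:42276696-42276945 on the minus strand.
Foxo1: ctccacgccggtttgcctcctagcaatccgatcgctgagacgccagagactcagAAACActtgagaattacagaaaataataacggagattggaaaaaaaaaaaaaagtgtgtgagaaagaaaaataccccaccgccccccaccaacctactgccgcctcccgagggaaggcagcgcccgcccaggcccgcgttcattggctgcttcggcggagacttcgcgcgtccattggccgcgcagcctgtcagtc
Foxo3: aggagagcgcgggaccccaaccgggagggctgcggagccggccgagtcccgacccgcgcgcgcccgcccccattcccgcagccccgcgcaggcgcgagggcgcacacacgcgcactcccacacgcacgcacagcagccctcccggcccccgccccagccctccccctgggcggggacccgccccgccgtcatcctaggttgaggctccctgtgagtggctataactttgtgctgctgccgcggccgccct
The Foxo1 window holds 1 match and the Foxo3 window none, while 46.4% of 32851 promoter windows in the RefSeq table hold at least 1. The longer motif GTAAACA, complement TGTTTAC, which contains the core, occurs in 3.17% of all windows and in none of the 13 windows of the 11 tested members with an entry. Both windows are rich in CG pairs, with 20 for Foxo1 and 31 for Foxo3, against a median of 6 over all windows.

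Genes that set FoxO activity changed in both directions. Of 35 listed, all 35 were tested, 12 were higher, 18 lower and 5 not called, with a median log2 fold change of −0.09. Over all tested genes 34.6% were higher and 35.5% lower. Sgk1, a kinase that phosphorylates FoxO proteins, had 133 ± 3.40 CPM in WT and rose to 386 ± 16.5 in FR (SD, n = 3), a log2 fold change of 1.54 ± 0.03 SE. Pik3r1, the regulatory subunit of PI3-kinase, fell from 150 ± 0.932 to 56.8 ± 1.98 CPM. Akt1, a further FoxO kinase, fell from 283 ± 4.77 to 205 ± 3.94 CPM (SD, n = 3 each). Sgk3, a relative of Sgk1, was singled out after its values were seen because FR libraries held no count of it. Set against a floor of 3 counts in each library it was at least 4.46-fold lower, and the list's median stayed at −0.09 with it at this bound.

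Genes described elsewhere as FoxO targets were split evenly. Of 40 listed, 34 were tested, 15 were higher, 15 lower and 4 not called, with a median of 0.08. The shares over all tested genes were 34.6% higher and 35.5% lower. Sesn3, a sestrin that restrains mTORC1, fell from 145 ± 4.15 CPM in WT to 46.6 ± 1.39 in FR, a log2 fold change of −1.64 ± 0.04 SE. Gabarapl1, of the autophagy machinery, fell from 119 ± 2.77 to 61.9 ± 0.858 CPM. Cited2, a transcriptional coregulator, had 130 ± 2.32 CPM in WT and rose to 241 ± 3.57 in FR (SD, n = 3 for each of these values).

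Foxm1 (ENSMUSG00000001517), the single FoxM gene and a driver of mitotic genes, was lower in FR. Its CPM were 197, 191 and 194 in WT and 151, 145 and 151 in FR, without overlap (log2 fold change −0.38 ± 0.03 SE, edgeR adjusted p = 2.58e-12). Of 30 genes described as FoxM1 targets, all 30 were tested, 21 were lower, 5 higher and 4 not called, with a median of −0.27. Among all tested genes 35.5% were lower and 34.6% higher. The centromere protein genes Cenpb and Cenpf fell from 178 ± 2.03 to 117 ± 3.42 CPM and from 156 ± 4.89 to 105 ± 4.73 CPM. The mitotic kinesin gene Kif20a fell from 188 ± 3.91 to 141 ± 5.11 CPM, while Top2a, topoisomerase II alpha, had 693 ± 10.1 CPM in WT and rose to 774 ± 8.48 in FR (SD, n = 3). Aurkb, Ccnb1, Cenpa and Plk1 were the targets not called. A list of FoxM1 partners held genes of the DREAM and MMB complexes and the E2F family, with others such as Melk and Fzr1. Of its 21 tested genes, 8 were higher and 9 lower (median −0.08). Rbbp4, a histone-binding subunit, had a log2 fold change of 0.66 ± 0.03 SE, Tfdp2, an E2F partner, of 0.72 ± 0.05, and E2f1 of −0.48 ± 0.04.

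**Figure D4:**
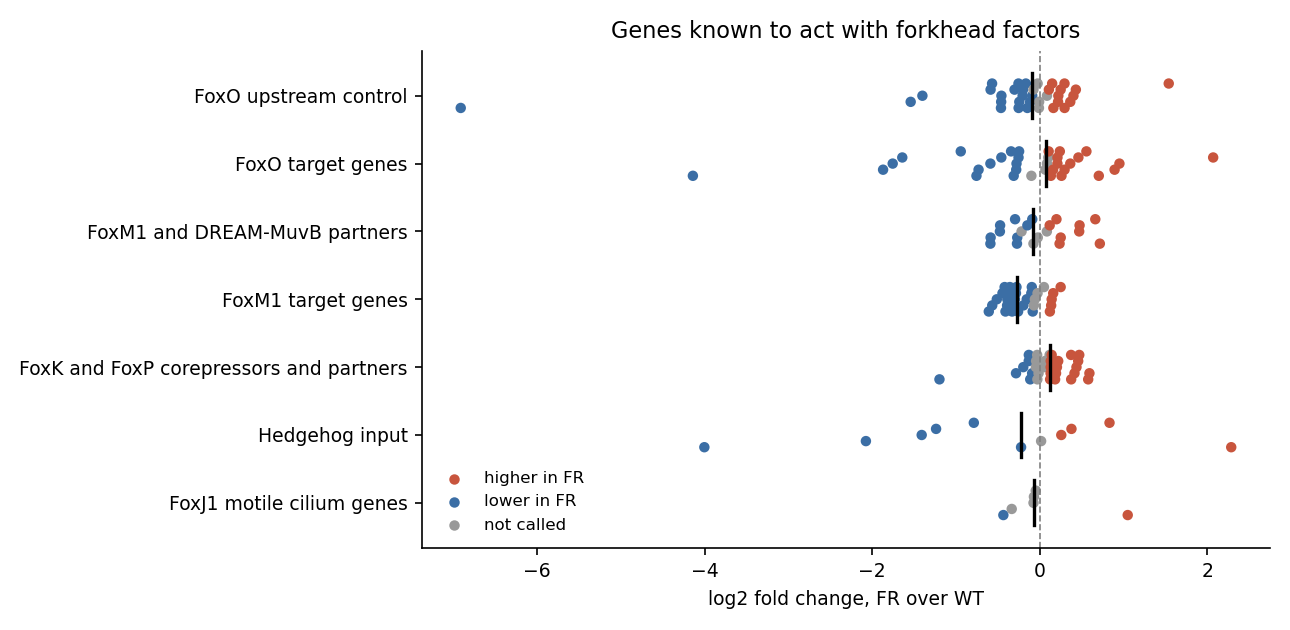
Log2 fold change, FR over WT, of the tested genes of 7 lists of genes known to act upstream of, with or downstream of forkhead factors. Each point is a gene (red called higher, blue lower, grey not called), the black bar is the list's median and the dashed line the median of all tested genes; most FoxM1 targets lie left of the dashed line, the FoxO lists spread to both sides, and the point farthest left is Sgk3, which had no counts in FR, so that its fitted value depends on the prior count.

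In 6 subfamilies with 2 or more tested members, at least 1 member was higher and at least 1 lower in FR. These were FoxC, FoxF, FoxJ, FoxK, FoxL and FoxP. Of all 22 tested members 9 were higher and 12 lower (all tested genes: 34.6% and 35.5%). Whether splits within subfamilies exceed this mix was not tested. For FoxL the split rests on Foxl1, whose call ended in 8 of the 15 alternatives. The ratio of paralogues within a library does not depend on the scaling between libraries, and it is given on CPM per kb. FoxN and FoxO were the subfamilies with several tested members and no member called higher.

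Foxf1 and Foxf2 moved apart most. Both act in mesenchyme, Foxf1 mainly in lung, gut and their vessels and Foxf2 in palate and brain pericytes. Foxf1 (ENSMUSG00000042812) had 24.6, 26.8 and 26.2 CPM in WT and 3.69, 2.52 and 1.98 in FR (log2 fold change −3.26 ± 0.12 SE, edgeR adjusted p = 1.82e-15). Foxf2 (ENSMUSG00000038402) had 16.7, 16.8 and 16.6 CPM in WT and 33.2, 37.3 and 30.8 in FR (log2 fold change 1.02 ± 0.07 SE, edgeR adjusted p = 9.04e-14). Foxf1 was thus far lower, and Foxf2 higher, in every FR library. The Foxf2 to Foxf1 ratio was 0.661 ± 0.0297 in WT and 13.4 ± 3.67 in FR (SD, n = 3).

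Foxc1, needed for skull and eye development, had 35.2, 33.1 and 35.4 CPM in WT and 27.3, 29.1 and 29.8 in FR (log2 fold change −0.26 ± 0.06 SE, edgeR adjusted p = 0.000110). Foxc2, needed for lymphatic vessels and the axial skeleton, had 13.9, 12.5 and 14.8 CPM in WT and 20.9, 19.9 and 19.3 in FR (log2 fold change 0.54 ± 0.08 SE, edgeR adjusted p = 5.37e-07). These small and opposite changes left the Foxc2 to Foxc1 ratio at 0.852 ± 0.0431 in WT and 1.50 ± 0.129 in FR (SD, n = 3).

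Foxl2 (ENSMUSG00000050397), known for its role in granulosa cells of the ovary, had 12.1, 11.8 and 12.8 CPM in WT and 0.987, 1.04 and 1.37 in FR (log2 fold change −3.43 ± 0.15 SE, edgeR adjusted p = 4.02e-18). This was the largest fold change among the tested members, and no FR library came near a WT library. Foxl1, a marker of gut mesenchyme, had 1.83, 1.51 and 1.09 CPM in WT and 2.75, 2.12 and 1.75 in FR, with overlap (log2 fold change 0.56 ± 0.25 SE, edgeR adjusted p = 0.0462). Its call ended in 8 of the 15 alternatives, among them leaving out WT replicate 2 (adjusted p = 0.0923), WT replicate 3 (0.210), FR replicate 1 (0.243) or FR replicate 2 (0.0802). DESeq2 gave Foxl1 an adjusted p of 0.105. Foxl3 had no count.

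Foxs1 (ENSMUSG00000074676), a FoxS gene seen in perivascular cells, was low in WT and near the detection limit in FR. Its expected counts were 52, 56 and 64 in WT and 3, 5 and 6 in FR, which is 2.19 ± 0.296 and 0.213 ± 0.0648 CPM (SD, n = 3; log2 fold change −3.32 ± 0.35 SE, edgeR adjusted p = 2.05e-09). The fold change is poorly bounded at such counts, though the groups are far apart. Foxs1 passed the filter through its WT libraries alone, the group where it is high.

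FoxJ genes differed in both level and direction. Foxj3 and Foxj2 are broadly expressed activators. Foxj3 rose from 72.4 ± 0.758 to 98.3 ± 1.47 CPM and Foxj2 fell from 37.7 ± 1.31 to 25.5 ± 2.39 CPM (SD, n = 3; log2 fold change 0.44 ± 0.03 and −0.56 ± 0.06 SE). The Foxj3 to Foxj2 ratio was 1.86 ± 0.0853 in WT and 3.74 ± 0.306 in FR. Foxj1, the master regulator of motile cilia, was low, with WT counts of 8, 3 and 8 and FR counts of 11, 16 and 11 (edgeR adjusted p = 0.0188). The filter's minimum of 10 counts was reached in FR libraries only, so Foxj1 was tested through the group where it is high. The Foxj1 call ended without WT replicate 2 (0.122) or FR replicate 2 (0.0698), with no filter (0.0520) and with DESeq2 (0.0793). Of 25 motile cilium genes only 6 could be tested, and 5 had no count in any library. Of the 6, 1 was higher (Dnai2) and 1 lower (Rfx2), with a median of −0.07 (all tested genes: 34.6% higher, 35.5% lower). Rfx2, a ciliogenic transcription factor, went from 12.2 ± 0.575 to 9.03 ± 0.540 CPM, Dnai2, a dynein chain, from 0.685 ± 0.235 to 1.41 ± 0.265 CPM, and Ccdc39 was not called at 2.36 ± 0.138 and 1.87 ± 0.376 CPM (SD, n = 3 each).

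In the FoxK and FoxP subfamilies 1 tested member of each was higher and the other lower. Foxk1 and Foxk2 encode repressors that restrain autophagy genes in fed cells. Foxk1 had 59.7 ± 1.40 CPM in WT and rose to 85.7 ± 3.98 in FR (log2 fold change 0.52 ± 0.04 SE, edgeR adjusted p = 1.99e-12). Foxk2 had 129, 127 and 129 CPM in WT and 118, 118 and 108 in FR (log2 fold change −0.16 ± 0.04 SE, edgeR adjusted p = 0.000206). The Foxk1 to Foxk2 ratio, 0.315 ± 0.00517 in WT and 0.506 ± 0.00769 in FR (SD, n = 3), did not overlap between the groups.

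Foxp1 and Foxp4 encode repressors active in lung, heart and blood cell development. Foxp1 had 99.0 ± 2.91 CPM in WT and fell to 62.1 ± 2.57 in FR (log2 fold change −0.67 ± 0.04 SE, edgeR adjusted p = 2.77e-15), and Foxp4 rose from 66.9 ± 1.49 to 75.2 ± 2.22 CPM (0.17 ± 0.04 SE, edgeR adjusted p = 0.000341). The Foxp4 to Foxp1 ratio was 0.449 ± 0.0191 in WT and 0.803 ± 0.0184 in FR (SD, n = 3).

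All 32 listed corepressors and partners of FoxK and FoxP proteins were tested. They were higher in 17 cases, lower in 7 and not called in 8, with a median of 0.13. Over all tested genes 34.6% were higher and 35.5% lower. Hcfc1, a chromatin cofactor, had a log2 fold change of 0.47 ± 0.03 SE, Dvl1, a Wnt adaptor that FoxK proteins carry into the nucleus, of 0.59 ± 0.04, Hdac7, a class IIa deacetylase, of 0.44 ± 0.03, and Sap130, a Sin3 complex subunit, of −0.28 ± 0.04.

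Both tested FoxN genes fell slightly. Foxn2 had 57.2, 58.2 and 57.1 CPM in WT and 51.3, 52.7 and 51.5 in FR (log2 fold change −0.15 ± 0.04 SE, edgeR adjusted p = 0.00206). Foxn3, a repressor linked to cell cycle checkpoints, had 20.8, 20.6 and 20.9 CPM in WT and 18.3, 14.5 and 16.9 in FR (log2 fold change −0.33 ± 0.08 SE, edgeR adjusted p = 0.000372). Neither gene's groups overlapped.

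Foxq1, known from hair follicles and epithelia, lies within a gene on the other strand, and reads there are split by estimation. Its expected counts were 15.3, 29.0 and 13.9 in WT and 36.0, 47.0 and 14.2 in FR, so that FR replicate 3 fell among the WT values (log2 fold change 0.99 ± 0.39 SE, edgeR adjusted p = 0.0298). A530084C06Rik, which overlaps Foxq1 on the opposite strand, was assigned 7.66, 0 and 2.15 counts in the WT libraries and 0, 0 and 19.8 in the FR libraries. Summed, the pair came to 23, 29 and 16 counts in the WT libraries and 36, 47 and 34 in the FR libraries, and the groups no longer overlapped (log2 fold change 1.04 ± 0.28 SE, edgeR adjusted p = 0.00190), in an alternative chosen after seeing the data. Without this sum, the Foxq1 call ended when WT replicate 1 (0.114), WT replicate 3 (0.120), FR replicate 1 (0.127) or FR replicate 2 (0.153) was left out.

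Some of the largest falls were seen also in noncoding RNA genes on the opposite strand. A set was made, after values were seen, of all genes that start within 3000 bases of a forkhead gene on the opposite strand in GENCODE M21. It held 18 genes of the table, of which 10 could be tested, 4 lower, 1 higher and 5 not called. Over all tested genes 35.5% were lower and 34.6% higher. Fendrr, the noncoding RNA gene that faces away from Foxf1, had 6.41, 6.17 and 5.19 CPM in WT and 0.260, 0.320 and 0.519 in FR (log2 fold change −4.00 ± 0.24 SE, edgeR adjusted p = 7.71e-15). Foxl2os, which overlaps Foxl2, had 14.8, 14 and 13.1 CPM in WT and 1.30, 1.84 and 1.84 in FR (log2 fold change −3.06 ± 0.14 SE, edgeR adjusted p = 8.23e-18). Foxd2os had 8.65, 8.77 and 8.50 CPM in WT and 0.883, 1.48 and 1.37 in FR (log2 fold change −2.77 ± 0.16 SE, edgeR adjusted p = 6.40e-15). In all 3 cases FR lay far below WT, as did the forkhead partner. Whether the libraries keep strand is not given in the labels, and reads in the stretch where Foxl2 and Foxl2os overlap cannot be told apart, while Fendrr and Foxd2os do not overlap their partners in that annotation.

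Of the tested opposite-strand neighbours of other members, 1 was lower, 1 higher and 5 not called. Rhno1, a DNA damage checkpoint gene next to Foxm1, had a log2 fold change of −0.14 ± 0.06 SE (edgeR adjusted p = 0.0233), and Sympk, an mRNA 3' end processing gene next to Foxa3, of 0.32 ± 0.03 SE. Not called were 1700018A04Rik beside Foxf2 (0.48 ± 0.24 SE), Gm26826 beside Foxj2 (−0.75 ± 0.35), Frg2f1 beside Foxj3, Ppp1r16a beside Foxh1 and Ppp1r3f beside Foxp3.

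**Figure D5:**
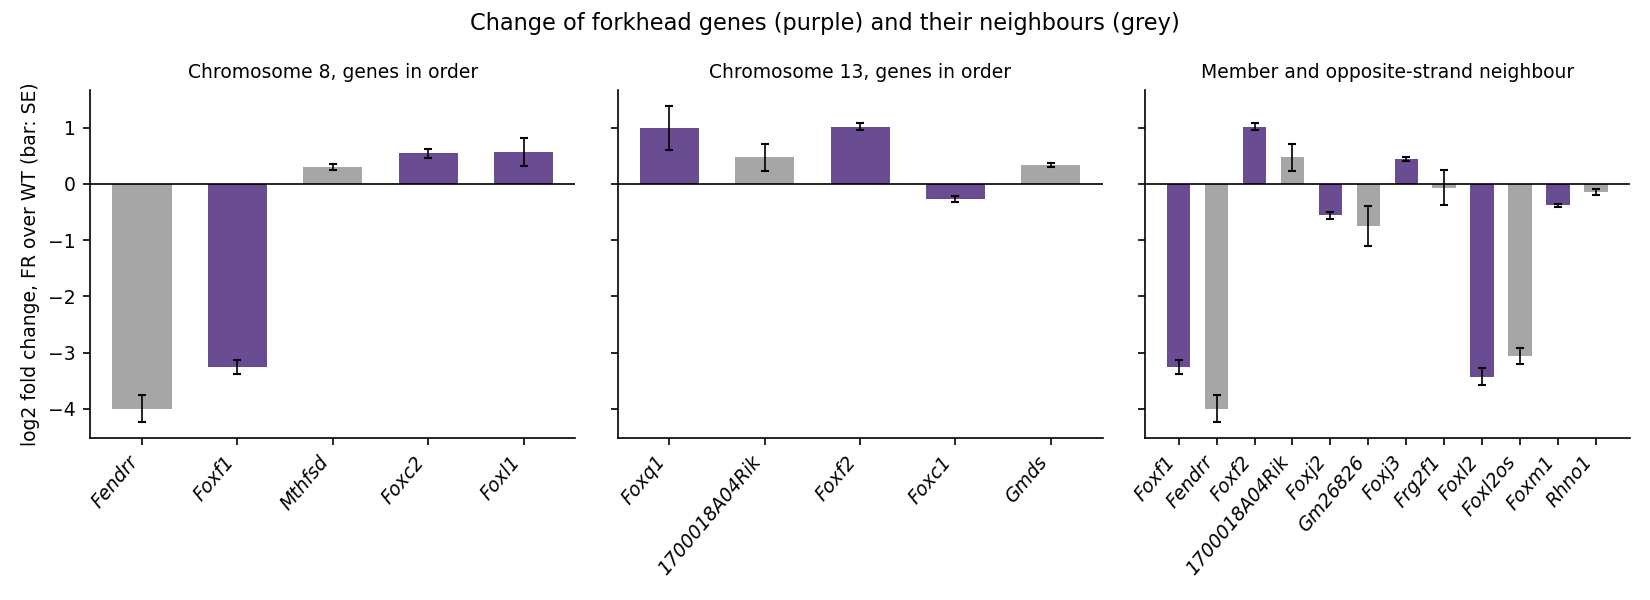
Log2 fold change, FR over WT, with the SE of the fit, as bars for forkhead genes (purple) and other tested genes (grey). The left and middle panels show the tested genes of the chromosome 8 and chromosome 13 clusters in genome order, and the right panel sets each tested member beside its tested opposite-strand neighbour; Fendrr and Foxf1 lie at −4.00 and −3.26 while Mthfsd, Foxc2 and Foxl1 lie above 0.

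The promoter windows of Foxl2 and Foxd2 are shown because both genes, Foxd2 with few counts, lie beside a noncoding gene that was lower in FR. They are again the 250 bases before the RefSeq start in GRCm38.p6, with AAACA or TGTTT in capitals. Foxl2 lies at chr9:98955357-98955606 on the plus strand and Foxd2 at chr4:114908899-114909148 on the minus strand.
Foxl2: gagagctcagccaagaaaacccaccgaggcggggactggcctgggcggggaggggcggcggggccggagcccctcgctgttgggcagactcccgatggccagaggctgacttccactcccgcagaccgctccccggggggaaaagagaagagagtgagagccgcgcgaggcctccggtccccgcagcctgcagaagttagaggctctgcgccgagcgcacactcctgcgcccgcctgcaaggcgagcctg
Foxd2: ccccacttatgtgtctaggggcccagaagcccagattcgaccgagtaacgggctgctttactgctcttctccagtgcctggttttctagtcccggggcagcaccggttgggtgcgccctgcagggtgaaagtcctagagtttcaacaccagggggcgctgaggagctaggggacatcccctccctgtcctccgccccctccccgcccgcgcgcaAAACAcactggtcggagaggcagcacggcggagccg
The Foxl2 window holds no match and the Foxd2 window 1. They hold 22 and 16 CG pairs, and 70.8% and 64.4% of their bases are G or C, against a median of 52.4% over all windows.

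Changes differed in direction within the gene clusters in which some of these genes sit. Over all tested genes 34.6% were higher and 35.5% lower, and whether the clusters depart from this mix was not tested. On chromosome 8 the order in GENCODE M21 is Fendrr, Foxf1, Mthfsd, Foxc2 and Foxl1. Fendrr and Foxf1 were lower, while Mthfsd, a gene of folate metabolism, rose from 29.1 to 36.1 CPM (log2 fold change 0.31 ± 0.06 SE, edgeR adjusted p = 2.23e-05). Foxc2 and Foxl1 were higher as given above, though the Foxl1 groups overlapped and its call ended in 8 of the 15 alternatives. On chromosome 13 the order is Foxq1, Foxf2, Foxc1 and Gmds. Foxf2 was higher, Foxc1 lower, and Gmds, an enzyme of GDP-fucose synthesis, rose from 58.2 to 73.9 CPM (log2 fold change 0.34 ± 0.04 SE). Gm20388, a gene model that spans Foxf1, Foxc2 and Foxl1 on the same strand, was higher (0.32 ± 0.05 SE).

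Hedgehog signalling is known to act upstream of mesenchymal FoxC, FoxD, FoxF and FoxL genes. Of 13 listed genes for its reception, the GLI factors and ligand release, 11 were tested. Of these, 4 were higher, 6 lower and 1 (Smo) not called, with a median of −0.22. For all tested genes the shares were 34.6% higher and 35.5% lower. The coreceptor genes Boc and Cdon fell from 13.1 ± 0.584 to 0.812 ± 0.266 CPM and from 49.0 ± 1.24 to 20.7 ± 0.612 CPM. Disp1, needed for ligand release, fell from 56.2 ± 1.84 to 13.3 ± 0.564 CPM, and the transcription factor gene Gli2 had 2.61 ± 0.623 CPM in WT and rose to 12.7 ± 1.27 in FR (SD, n = 3).

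Of the 23 members below the filter, Foxd1, Foxd2 and Foxn1 had groups whose CPM did not overlap. The share of all genes below the filter without overlap was not computed, so this count has no background beside it. Foxd2 counts were 12, 15 and 7 in the WT libraries and 1, 0 and 0 in the FR libraries, a WT to FR ratio of pooled counts of 28.3 (exact 95% interval 4.74 to 1149, counting error only). Foxd1, a marker of kidney stroma, had WT counts of 4, 5 and 4 and none in FR. Of the other FoxD genes, Foxd3 had no count and Foxd4 had none in WT and 0, 2 and 2 counts in the FR libraries. These counts are too few to give a direction. Without a filter the edgeR adjusted p of Foxd2 was 2.32e-05 and that of Foxd1 0.00879, in a fit that takes the spread of most genes from the trend over all genes alone. That fit called 10931 of 27286 genes at the same threshold. Foxn1, the regulator of thymic epithelium, had WT counts of 1, 0 and 5 and FR counts of 6, 8 and 13 (edgeR adjusted p = 0.00519 without a filter).

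In CPM the remaining low members overlapped between the groups. Foxp3, the regulator of regulatory T cells, had 4.25, 9.79 and 8.65 expected counts in WT and 3.19, 2 and 3.24 in FR, and Foxp2 5, 3 and 10.5 against 18.6, 7 and 8 (edgeR adjusted p = 0.198 and 0.0996 without a filter). The Foxp3 counts did not overlap, but its CPM did, at 0.156 in WT replicate 1 and 0.166 in FR replicate 1. Foxa3 had between 2 and 8 counts in every library. Foxa1, Foxd4, Foxe1, Foxh1, Foxn4, Foxo6 and Foxr1 had at most 3 counts in any library. Foxa2, Foxb1, Foxb2, Foxd3, Foxe3, Foxi1, Foxi2, Foxi3, Foxl3 and Foxr2 had none, which at these depths does not show absence.

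Several forkhead genes are also markers of other cell types, so marker lists of 10 genes each are given beside them. Their part in the changes above was not tested. Counts of called markers stand beside 34.6% higher and 35.5% lower over all tested genes. The summed level was 4.27 to 4.62 CPM in WT and 3.54 to 4.93 in FR for endothelium (3 tested, 1 higher, 1 lower; led by Emcn, with Sox17 at 0). It was 0.819 to 1.72 and 8.94 to 10.5 CPM for leukocytes (2 tested, both higher; led by Csf1r, with Cd3e at 0). It was 8.39 to 10.2 and 21.5 to 23.7 CPM for epithelium and endoderm (2 tested, 1 higher; led by Gata4, with Krt5 and Cldn4 among those at 0). Chondrocyte markers summed to 74.5 to 77.4 and 53.9 to 56.0 CPM (5 tested, 1 higher, 3 lower; led by Sox9, with Acan, Col9a1 and Snorc at 0). Adipocyte markers summed to 1.54 to 2.16 and 1.21 to 2.08 CPM (2 tested, 1 higher, 1 lower; led by Fabp4, with Lep, Cfd and Retn at 0). Skeletal muscle markers summed to 16.2 to 17.0 and 8.31 to 8.83 CPM (2 tested, 1 higher, 1 lower; led by Pax3, with Myod1 and Pax7 at 0). Neural crest and glial markers summed to 21.8 to 22.8 and 24.3 to 26.8 CPM (5 tested, 3 higher, 2 lower; led by Tfap2a, with 1 marker at 0).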

How the data were processed

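A single table holding expected counts for each gene in 6 libraries was deposited by the authors, made with fastp, HISAT and RSEM on GRCm39 per the submitters' processing notes; versions and settings are not given in the sources used here. RSEM shares reads between overlapping genes by estimation, and 85.9% of the values were whole. The deposited gene length is of unstated basis, and the deposited group means were not used.

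Expected counts were rounded, filtered with filterByExpr (14889 genes kept) and given TMM factors. The test was the quasi-likelihood F-test, with robust settings, of edgeR 4.0.16 in R 4.3.3, with Benjamini-Hochberg adjustment over all tested genes and a threshold of 0.05. Fold changes set FR over WT, and their SE is the fit's. CPM are mean ± SD of 3 libraries. Tested forkhead genes are named, except for an item that is counted but not reported here and is left out of levels, sums and figures. Of each list of related genes the text names the 3 members of smallest adjusted p, plus the first in the other direction where all 3 agree, and of marker lists of other cell types the most abundant gene. The members and lists were chosen with earlier results of these data known. Lin54 of the DREAM list was not matched in the table. Alternatives were other size factors, filters, limma-voom 3.58.1, DESeq2 1.42.0, a replicate block, the 10 most abundant genes left out and each library left out.

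Counts were simulated with these libraries' means, with 50 genes changed at each fold size and all others unchanged, and 14635 genes were tested. There edgeR called 53.1% of genes changed 1.2-fold, 70% of those changed 1.5-fold and 85.7% of those changed 2-fold. It called 98% of those changed 4-fold and 0.132% of the unchanged. In these data 70.1% of all tested genes were called, so the same adjusted threshold admits larger raw p-values than in the simulation. These rates therefore do not carry over to this comparison. Gene order and overlap came from GENCODE M21 on GRCm38, in which all 45 members were found, and no gene coordinates are taken from it. The set of opposite-strand neighbours and the sum of Foxq1 with its overlapping gene were chosen after seeing the data. Promoters came from RefSeq on GRCm38.p6, with an entry for 28 members, 11 of them tested. Figures were drawn with matplotlib 3.10.9.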

Additional observations from a re-analysis of the deposited data

How the results depend on the processing

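Of the 22 tested forkhead genes, 19 kept direction and side of the threshold under every alternative in which they could be fitted. Foxj1, Foxl1 and Foxq1 kept their direction and lost the call in some, with the values given in the report; for Foxl1 also under library size alone (adjusted p = 0.0511), no filter (0.0700) and limma-voom (0.0589), and for Foxq1 under limma-voom (0.0600). Foxj1 could not be fitted under the filter of a mean of 1 CPM, which removes it. The count of members called higher, 9, ranged from 7 to 9, and that of members called lower, 12, from 12 to 14, the highest with no filter, which adds Foxd1 and Foxd2. At a change of at least 2-fold the counts, 3 higher and 4 lower, ranged from 2 to 4 and from 4 to 6. Foxf2 lay below 2-fold with no filter (log2 fold change 0.997) and without FR replicate 2 (0.930). With the replicate number as a block the counts were 9 and 12, and no forkhead call changed. Libraries with the same number did not deviate together (correlations of 0.00699, −0.0233 and −0.0404), so the numbers were not taken to pair the samples. Motile cilium genes called lower, 1 in the report, numbered 3 with no filter and from 1 to 3 with a library left out, settings in which more genes pass the filter. Without division by gene length the FoxJ share of the summed level was 10.8% in WT and 14.2% in FR, FoxK 18.3% and 22.9%, FoxM 18.9% and 17.0%, FoxO 17.6% and 11.9%, and FoxP 16.2% and 15.8%, so the order of the subfamilies depends on the lengths. Depth limits Foxj1, Foxl1, Foxq1, Foxs1 and all members below the filter. Median-of-ratios factors and library size alone put the median log2 fold change of all genes at 0.000693 and −0.00168, and over all alternatives the share of higher calls stayed between 46.7% and 49.6%.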

Other observations

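Rows named Fox that hold no forkhead domain were left out of the family. Foxred2, a flavoprotein of the endoplasmic reticulum, went from 7.29 to 4.22 CPM (log2 fold change −0.79 ± 0.13 SE, edgeR adjusted p = 2.55e-06). Foxred1, which helps assemble respiratory complex I, went from 23.9 to 27.7 CPM (0.21 ± 0.07 SE, edgeR adjusted p = 0.0162). The noncoding gene Foxo6os had at most 1 count in any library.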
